A study of Mus musculus with 18 samples.

Results

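The genes described here encode the lysosome and its acid hydrolases: 42 named genes out of 19454 with a row of their own on the arrays. They were chosen by name, as proton pump subunits, degradative enzymes, lysosomal membrane proteins and the transcription factor Tfeb. For each symbol the row with the brightest mean signal was used. Of the 42 genes, 41 had such a row and all 41 passed the filter on dim genes, beside 10258 of the 19454 genes of the series. Atp6v0c was not analysed here.

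Lysosomes are acid compartments in which proteins, glycans and lipids are taken apart. The vacuolar proton pump (V-ATPase) acidifies them: its membrane-embedded V0 sector carries protons and its cytosolic V1 sector hydrolyses ATP. Macrophages use lysosomes to digest what they engulf and to prepare antigens, and TFEB is a transcription factor known to switch on many lysosomal genes through a short DNA element with the core CACGTG.

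The cells were bone marrow-derived macrophages from C57Bl/6 mice, grown with M-CSF, the growth factor that drives macrophage differentiation. They were TTP-/- (KO), lacking tristetraprolin, an RNA-binding protein encoded by Zfp36 that speeds the decay of mRNAs with AU-rich elements, or wild type (WT). Cells of both genotypes received lipopolysaccharide (LPS), a bacterial stimulus, for 3 h. They were then given new medium with actinomycin D, which stops transcription, and SB203580, a p38 kinase inhibitor, and RNA was taken 0, 45 or 90 min later. Each of the 6 groups of genotype and time held 3 arrays, 18 in all, hybridised to Affymetrix Mouse Gene 1.0 ST chips. TTP was absent throughout growth of the KO cells, no group lacked LPS, and no group was followed without the p38 inhibitor. Whether a replicate is an animal, a culture or a repeat of one is not given in the labels, and p-values cover only the spread between these arrays, which may be technical.

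Values are log2 of the deposited RMA intensities. RMA gives all arrays a shared distribution of signals, so each change is a change in a gene's place within that distribution. Array medians were 7.41 to 8.19 in intensity, and a gene counted as bright enough when its highest group mean reached a log2 of 3.03. Within groups the arrays correlated at 0.940 to 0.993. By the SD over all tested genes of the deviation from the group mean, WT 0 min replicate 3 lay farthest from its group, at 0.39. Replicates 3 (0.33) and 2 (0.32) of WT 90 min came next and lay about equally far. WT 0 min replicate 3 and WT 90 min replicate 2 are called the distant arrays below. Several WT values are also given without 1 or both of these. Titles carry sample numbers in a low run (run A, replicate 3 of every group) and a high run (run B, replicates 1 and 2), and what the runs are is not given.

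All 9 macrophage markers with a row were tested, among them Adgre1, Csf1r and Cd68, and none was below the signal limit. Of the other cell types, 5 of 9 osteoclast markers, 6 of 9 fibroblast and stromal markers, 2 of 8 dendritic cell markers, 1 of 10 neutrophil markers and 0 of 8 T and B cell markers were bright enough. Zfp36 itself read 6.25, 6.75 and 6.81 in KO cells at 0 min, against 7.95, 7.86 and 7.12 in WT cells. The groups did not overlap, but the deleted part of the gene is not known here, so this does not check the genotype labels. The cytokine mRNA Tnf, a known TTP target, read 11.49, 11.85 and 11.40 in KO cells at 90 min and 7.72, 7.61 and 7.47 in WT cells.

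The signals of the 41 genes covered a wide span, although signals of different genes depend on their probes and are not compared with each other. Among the proteases, Ctsd (cathepsin D, an aspartic protease) had group means from 11.66 to 11.88, and Ctsk (cathepsin K, the collagen-degrading protease of osteoclasts) from 3.87 to 4.32. For the V0 sector, Atp6v0b, a proteolipid of the proton-carrying ring, had group means from 9.96 to 10.20, and Atp6v0d2, a connecting subunit known from osteoclasts, from 6.08 to 6.49. For the V1 sector, Atp6v1b2, which binds ATP, had group means from 9.78 to 9.99, and the regulatory subunit Atp6v1h from 7.05 to 7.21. Glycosidase group means ran from 9.82 to 10.01 for Hexa, which trims GM2 ganglioside, and from 5.26 to 5.90 for Gaa, which frees glucose from glycogen. Psap, the precursor of the saposins that help enzymes reach lipids, had group means from 11.57 to 11.80, and the thioesterase Ppt1 from 7.16 to 7.56. The abundant membrane protein Lamp1 had group means from 10.11 to 10.28, and the calcium channel Mcoln1 from 6.05 to 6.41. Tfeb had group means from 2.90 to 3.18, next to the signal limit of 3.03, so background limits what its row can show.

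Promoter sequence was at hand for 35 of the 42 genes, as windows from 250 bases before to 50 after the gene start (RefSeq, GRCm38.p6). The palindrome CACGTG, which reads the same on both strands, stood in 14 of the 35 (40%), beside 11.9% of the 8360 tested genes with a window and 8.09% of all 27025 genes with one. Its longer form TCACGTGA, which contains CACGTG, stood in 7 of the 35 (20%), beside 2.33% of the tested genes and 1.12% of all genes with a window. A gene with several windows was counted when any of them held the letters. These are letters in a window and say nothing of binding. The 7 sites with the longer form are shown because it is the element that the lysosomal gene family is known for. Each line has 30 bases, 5′ to 3′ on the gene's strand, with TCACGTGA in capitals.
Ctsa, chr2:164833749-164833778, plus strand: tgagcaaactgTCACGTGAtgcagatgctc
Ctsd, chr7:142387908-142387937, minus strand: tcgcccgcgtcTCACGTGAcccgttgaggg
Mcoln1, chr8:3500462-3500491, plus strand: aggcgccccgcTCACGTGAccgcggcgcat
Atp6v0d1, chr8:105566050-105566079, minus strand: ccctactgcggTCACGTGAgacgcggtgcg
Atp6v1a, chr16:44139373-44139402, minus strand: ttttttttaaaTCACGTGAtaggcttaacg
Atp6v0e, chr17:26676387-26676416, plus strand: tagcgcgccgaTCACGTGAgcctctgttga
Gla, chrX:134601215-134601244, minus strand: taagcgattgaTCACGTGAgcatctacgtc
The other 7 genes with the short form were Atp6v0b, Lamp1, Glb1, Naglu, Gaa, Lgmn and Ctsl.

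Relative to the array, the lysosomal mRNAs kept most of their signal after transcription stopped. No member passed the test over 90 min, a limma adjusted p below 0.05. Averaged over genotypes, the changes ran from -0.19 (Ctsk) to 0.25 (Gaa) on the log2 scale, and 39 of 41 were within 0.25 of 0. The median was 0.04, beside 0.02 over all tested genes, and 34 of 41 members were above 0, beside 54.6% of all tested genes. By the same limma test 2.34% of tested genes were called over 90 min. The 95% interval of the change puts a bound on any loss. It lay above -1, which is a loss of 50% of the signal relative to the array, for 40 of 41 members, beside 96.4% of tested genes. It lay above -0.5 for 38 of 41 members, beside 79.0% of tested genes. The exceptions were Ctsk at both limits and Atp6v0a1 and Atp6v0d2 at the second.

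The bounds can be read as the shortest relative time to halving that each interval allows, if the signal falls by a constant fraction per minute. That time was 80.5 min for Ctsk, 161 min for Atp6v0a1, 176 min for Atp6v0d2 and 219 min for Lgmn. It reached 723 min for Tpp1, 763 min for Atp6v1a and 1933 min for Mcoln1. Within a genotype it was 668 min in KO and 437 min in WT for Mcoln1, 646 min in KO and 275 min in WT for Tpp1, 222 min in KO and 2440 min in WT for Atp6v1a, and 61.0 min in KO and 59.0 min in WT for Ctsk. Times longer than 90 min reach past the course sampled, so they are bounds and not measured times to halving. For comparison of scale, Tnf fell by 4.24 ± 0.18 (SE, n = 3 arrays at each time) in WT cells over the same 90 min.

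Taken by genotype, 0 of 41 members were called over 90 min in KO cells, beside 0.224% of tested genes, and 0 of 41 in WT cells, beside 1.23%. At 45 min the counts were again 0 of 41 in KO cells, beside 0.0487% of tested genes, and 0 of 41 in WT cells, beside 0.127%. At an unadjusted p under 0.05, 1 member was higher over 90 min in KO cells (Gaa) and 0 in WT cells. No all-gene count at that threshold stands beside these here, so they are not read as a result about the members. In KO cells the interval lay above -1 for 40 of 41 members, beside 93.1% of tested genes, and above -0.5 for 37, beside 61.9%. In WT cells the counts were 40, beside 91.1% above -1, and 27, beside 55.5%, above -0.5. Ctsk was the exception at -1 in both genotypes.

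**Figure D1:**
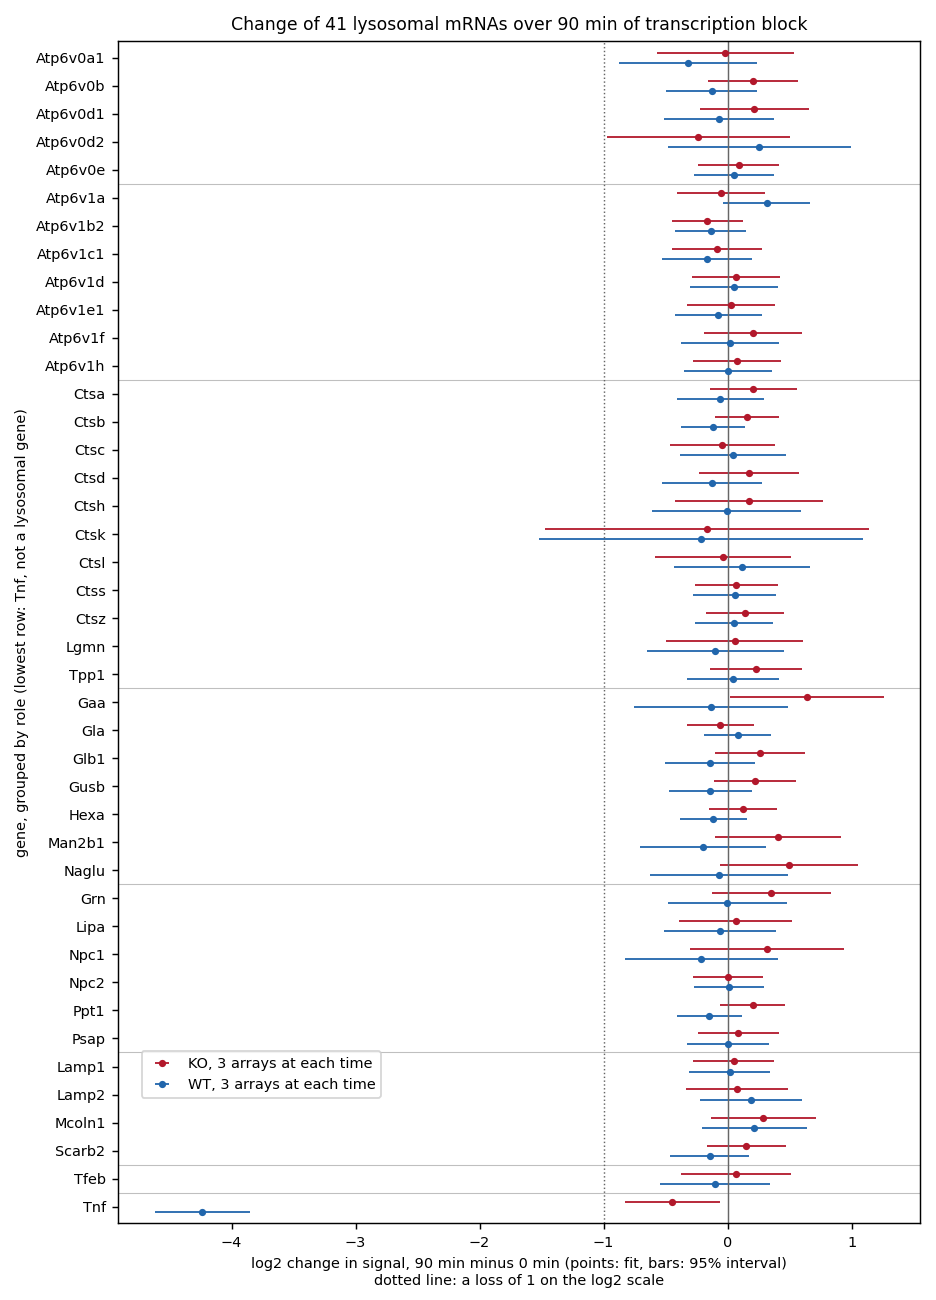
Fitted log2 change from 0 to 90 min (x axis) for each of 41 lysosomal genes, KO above WT, with 95% intervals from limma; the lowest row shows Tnf. The lysosomal genes lie between -0.32 and 0.64, while Tnf lies at -0.45 in KO and -4.24 in WT.

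By role, the fitted changes over 90 min in KO cells had medians of 0.09 for the V0 sector, 0.03 for the V1 sector, 0.14 for the proteases, 0.26 for the glycosidases, 0.14 for lipid handling and 0.11 for the membrane proteins. In WT cells the medians were -0.07 for the V0 sector, 0.00 for the V1 sector, -0.01 for the proteases, -0.13 for the glycosidases, -0.03 for lipid handling and 0.10 for the membrane proteins. Over all tested genes the medians were 0.02 in KO and -0.02 in WT. Several WT medians moved when a single array was omitted. Without WT 90 min replicate 2 the median was 0.07 for the glycosidases (5 of 7 above 0, against 1 of 7 with it), 0.15 for lipid handling, 0.06 for the proteases, -0.11 for the V1 sector and 0.05 for the membrane proteins, and 15 of 41 members turned sign. Without WT 0 min replicate 3 it was -0.23 for the glycosidases, -0.13 for lipid handling, 0.08 for the proteases and 0.14 for the V1 sector, and 7 of 41 members turned sign.

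Among the pump genes, the subunit Atp6v0a1, which lines the proton path, had the lowest change in WT cells, -0.32 ± 0.26 (SE, n = 3 arrays at each time; limma adjusted p 0.851). Its WT values were 8.19, 8.25 and 7.57 at 0 min, 8.11, 8.05 and 7.37 at 45 min and 7.89, 7.13 and 8.03 at 90 min. Replicate 2 was the lowest WT array at 90 min, and without it the change was -0.04 and Atp6v1c1, at -0.32, was lowest. Without WT 0 min replicate 3 the change of Atp6v0a1 was -0.54. In KO cells the gene read 7.64, 7.56 and 8.03 at 0 min, 7.85, 7.27 and 7.84 at 45 min and 7.62, 7.70 and 7.87 at 90 min.

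The catalytic subunit Atp6v1a had the highest change in WT cells, 0.31 ± 0.17 (SE, n = 3 arrays at each time; limma adjusted p 0.618). Its WT signal was 8.53, 8.68 and 9.13 at 0 min, 9.31, 9.10 and 9.13 at 45 min and 9.05, 9.32 and 8.91 at 90 min. In KO cells it was 9.24, 9.47 and 9.47 at 0 min, 9.40, 9.30 and 9.15 at 45 min and 9.43, 9.19 and 9.41 at 90 min. At 0 min the 3 KO values lay above the 3 WT values, and at the other times the genotypes overlapped. The WT change was 0.49 when replicate 3 at 0 min was omitted, and 0.20 when replicate 2 at 90 min was. Within run B alone the WT change over 90 min was 0.58 with an adjusted p of 0.0390 (limma). In that setting 1 of 41 members was called, beside 13.4% of tested genes.

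Atp6v0d2 had the lowest change of the members in KO cells, -0.24, and 0.26 in WT cells, where it was 0.72 without WT 0 min replicate 3. For the remaining pump genes both genotypes lay within 0.25 of 0. In KO cells the connecting subunit Atp6v0d1 had a change of 0.22, Atp6v0b of 0.20, the rotor subunit Atp6v1f of 0.20 and the small membrane subunit Atp6v0e of 0.09. In WT cells Atp6v0d1 had a change of -0.07, Atp6v0b of -0.13, Atp6v1f of 0.02 and Atp6v0e of 0.05. The stalk subunit Atp6v1e1 had a change of 0.03 in KO and -0.07 in WT, the rotor subunit Atp6v1d of 0.07 in KO and 0.05 in WT, and Atp6v1h of 0.08 in KO and 0.00 in WT. Both Atp6v1c1, which links the sectors, at -0.09 in KO and -0.17 in WT, and Atp6v1b2, at -0.16 in KO and -0.14 in WT, had values below 0 in both genotypes.

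Of the 11 proteases, 8 had fitted changes above 0 in KO cells and 5 in WT cells. The cysteine protease Ctsb had a change of 0.16 in KO and -0.12 in WT, and Ctsd of 0.17 in KO and -0.13 in WT. For Ctss, which trims the invariant chain of MHC class II, the values were 0.07 in KO and 0.06 in WT. Ctsa, a carboxypeptidase that also shields other lysosomal enzymes, had a change of 0.21 in KO and -0.06 in WT, and the carboxypeptidase Ctsz of 0.14 in KO and 0.05 in WT. Ctsh, an aminopeptidase, had a change of 0.17 in KO and -0.01 in WT. None of these passed the test.

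The lipid-handling genes included Lipa, the acid lipase for cholesteryl esters and triglycerides, with 0.06 in KO and -0.06 in WT. Of the cholesterol exporters, Npc1 had 0.32 in KO and -0.21 in WT, where it was 0.19 without WT 90 min replicate 2, and Npc2 had 0.00 in KO and 0.01 in WT. Grn, which encodes progranulin, had 0.35 in KO and 0.00 in WT (0.29 without that array), and Psap had 0.09 in KO and 0.01 in WT. Ppt1 had 0.20 in KO and -0.15 in WT (-0.20 without that array). Of the membrane proteins, Lamp1 had 0.05 in KO and 0.02 in WT, Lamp2 had 0.07 in KO and 0.19 in WT (-0.03 without that array), and Scarb2, which carries glucocerebrosidase to lysosomes, had 0.15 in KO and -0.14 in WT. Mcoln1 was above 0 in both genotypes, 0.29 in KO and 0.22 in WT, and its average of 0.25 ± 0.14 (SE) had the smallest adjusted p of the members over 90 min, 0.668 (limma). Tfeb had 0.07 in KO and -0.10 in WT.

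The next comparison set KO against WT cells. Averaged over the 3 times, the lysosomal mRNAs differed little: 31 of 41 were higher in KO, beside 51.4% of tested genes, with a median difference of 0.07 on the log2 scale, beside 0.01 over all tested genes. The differences ran from -0.20 (Atp6v0e) to 0.42 (Ctsc). In the limma fit without a block 0 of 41 members passed the threshold, beside 1.33% of tested genes. At an unadjusted p under 0.05, 6 members were higher and 1 was lower, beside 659 and 531 of the 10258 tested genes. At 0 min alone 0 of 41 members and 0.00% of tested genes passed. The median there was -0.01, beside 0.00 over all tested genes, and at an unadjusted p under 0.05 there were 2 members higher and 0 lower, beside 387 and 390 tested genes.

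Same-numbered KO and WT arrays deviated from their group means together at every time, with correlations of 0.16 to 0.65. Replicate 3 of every group is run A, so these correlations cannot tell a pairing by number from a difference between the runs. With the replicate number as a block, 3 proteases were called higher in KO cells: Ctsc, Ctsl and Lgmn. Beside these 3 of 41 members stand 2.95% of tested genes called higher in KO, and 0 of 41 members were called lower, beside 1.69% of tested genes. All 3 calls held when any 1 of the 18 arrays was left out of the paired fit. With the run as the block the same 3 members were called, beside 4.82% of tested genes in either direction. Both fits count the 3 times of a replicate number as separate, with no term for a genotype difference that varies between numbers. The 9 pairs of the same time and number come from 3 numbers, so these p-values may be too small.

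Ctsc encodes cathepsin C, a dipeptidyl peptidase that activates granule serine proteases, on chromosome 7 from 88278024 to 88315861 (GRCm38.p6). Its signal was 9.83, 10.07 and 10.61 in KO and 9.44, 9.46 and 10.03 in WT at 0 min. At 45 min it was 9.79, 10.03 and 10.13 in KO and 9.72, 9.68 and 9.67 in WT, and at 90 min 9.97, 9.99 and 10.42 in KO and 9.66, 9.77 and 9.63 in WT. The KO arrays at 45 and 90 min lay above all WT arrays of the same time, while at 0 min the genotypes overlapped. The average difference was 0.42 ± 0.12 (SE, n = 9 arrays each), a fold of 1.34, with a limma adjusted p of 0.0997 and, with the replicate block, 0.0154. Within run B the difference was 0.33 with an adjusted p of 0.0508. Ctsc lies on the chromosome of Zfp36, 59.9 Mb from it.

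Ctsl encodes cathepsin L, a cysteine endopeptidase, on chromosome 13 from 64361890 to 64370772. Its signal was 10.50, 10.55 and 11.16 in KO and 10.01, 10.10 and 10.75 in WT at 0 min. At 45 min it was 10.41, 10.62 and 10.95 in KO and 10.09, 10.15 and 10.73 in WT, and at 90 min 10.50, 10.53 and 11.08 in KO and 10.15, 10.27 and 10.78 in WT. Replicate 3 was the highest array of each group, so the genotypes overlapped at every time, but each KO array exceeded the WT array of its own number and time, by 0.22 to 0.49. The average difference was 0.36 ± 0.15 (SE, n = 9 arrays each), a fold of 1.29, with an adjusted p of 0.341 without and 0.00423 with the replicate block (limma). Within run B the difference was 0.39 with an adjusted p of 0.0192, the call of 1 of 41 members beside 5.82% of tested genes. Ctsl is named here, outside the rule for named genes, because the paired fit called it.

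Lgmn encodes legumain, an asparaginyl endopeptidase that processes cathepsins, on chromosome 12 from 102394082 to 102439728. Its signal was 10.17, 10.09 and 11.03 in KO and 9.98, 10.06 and 10.33 in WT at 0 min. At 45 min it was 10.26, 10.11 and 10.73 in KO and 9.85, 9.85 and 10.10 in WT, and at 90 min 10.27, 10.25 and 10.93 in KO and 9.92, 9.72 and 10.44 in WT. The 3 KO arrays at 45 min lay above the 3 WT arrays, and at 0 and 90 min the genotypes overlapped through WT replicate 3. The average difference was 0.40 ± 0.15 (SE, n = 9 arrays each), a fold of 1.32, with an adjusted p of 0.274 without and 0.0108 with the replicate block (limma). Within run B the difference was 0.29 with an adjusted p of 0.0680.

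**Figure D2:**
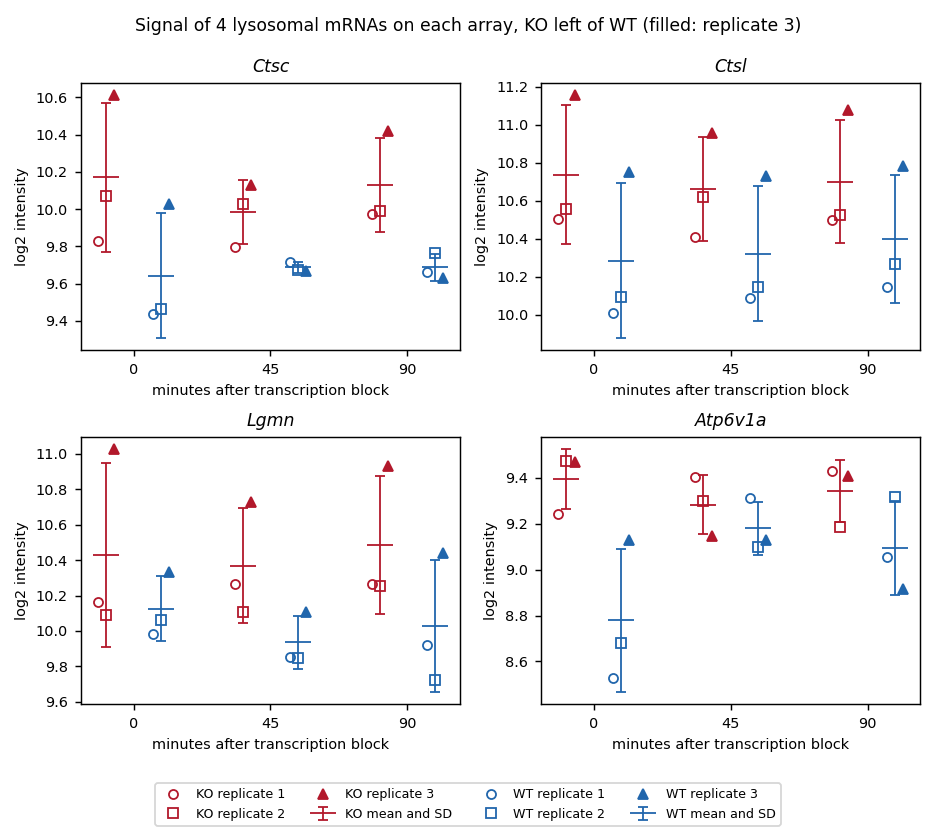
Log2 intensity of Ctsc, Ctsl, Lgmn and Atp6v1a on each array (y axis) at 0, 45 and 90 min (x axis), KO left of WT, with the mean and SD of 3 arrays; filled triangles are replicate 3. For Ctsl and Lgmn replicate 3 lies above replicates 1 and 2 in all 6 groups, and each KO array lies above the WT array of the same number and time.

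The promoter windows of the 3 proteases are shown because these genes carry the genotype result of the paired fit. Each has 300 bases, 5′ to 3′ on the gene's strand, with CACGTG in capitals where present (RefSeq, GRCm38.p6). The window of Ctsl holds it once, and so does the shown window of Lgmn, the inner of the 2 listed for that gene. The shown windows of Ctsl and Lgmn lie inside the gene spans given above, so they belong to starts within them. The outer window of Lgmn, chr12:102439679-102439978, covers the outer end of its gene span and holds no CACGTG. The window of Ctsc holds none.
Ctsl, chr13:64370471-64370770, minus strand: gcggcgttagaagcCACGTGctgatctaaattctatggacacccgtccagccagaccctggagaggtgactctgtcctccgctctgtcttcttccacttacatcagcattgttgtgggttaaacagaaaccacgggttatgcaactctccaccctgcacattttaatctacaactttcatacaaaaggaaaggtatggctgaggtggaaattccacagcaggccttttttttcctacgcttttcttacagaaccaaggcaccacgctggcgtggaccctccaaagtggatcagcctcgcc
Lgmn, chr12:102439043-102439342, minus strand: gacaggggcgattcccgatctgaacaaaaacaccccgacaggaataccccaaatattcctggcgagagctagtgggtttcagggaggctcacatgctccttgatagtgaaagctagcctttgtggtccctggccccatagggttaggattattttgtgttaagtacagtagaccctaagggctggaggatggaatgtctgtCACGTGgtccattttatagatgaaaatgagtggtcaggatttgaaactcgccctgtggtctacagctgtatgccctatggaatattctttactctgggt
Ctsc, chr7:88277835-88278134, plus strand: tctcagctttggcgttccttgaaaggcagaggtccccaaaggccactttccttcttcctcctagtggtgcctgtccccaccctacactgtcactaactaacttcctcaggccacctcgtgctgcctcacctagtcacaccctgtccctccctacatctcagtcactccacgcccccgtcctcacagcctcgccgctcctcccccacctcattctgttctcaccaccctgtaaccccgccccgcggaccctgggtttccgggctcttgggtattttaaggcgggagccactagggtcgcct

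Pair by pair, 5 of 41 members were higher in KO in all 9 pairs of the same time and number, beside 3.04% of tested genes. They were Ctsc, Ctsl, Lgmn, Tpp1 and Lamp1. Tpp1, the tripeptidyl peptidase on chromosome 7 from 105744811 to 105752282, differed by 0.13 to 0.81, with an average of 0.31 ± 0.10 (SE, n = 9 arrays each; adjusted p 0.172, and 0.0995 with the block, limma). For Lamp1 the 9 differences ran from 0.00 to 0.29 with a median of 0.02, so the shared sign carries almost no size. A single member, Atp6v0e, was lower in KO in all 9 pairs, by 0.03 to 0.66, beside 1.38% of tested genes. Its average was -0.20 ± 0.09 (SE, n = 9 arrays each) with an adjusted p of 0.396.

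**Figure D3:**
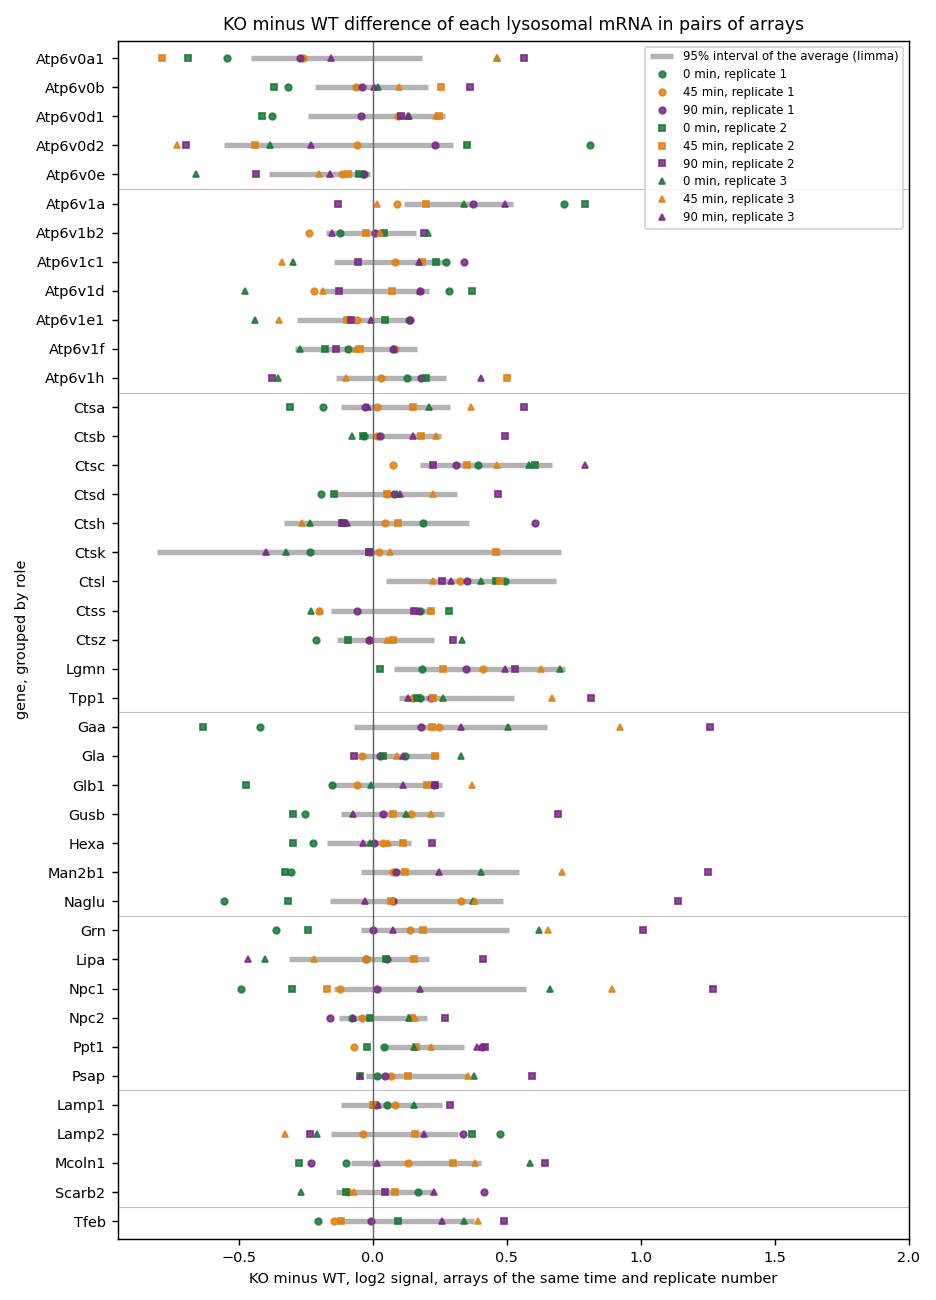
Difference of KO minus WT in log2 signal (x axis) for each of 41 lysosomal genes in 9 pairs of arrays of the same time (colour) and replicate number (symbol), with the 95% interval of the average from limma as a grey bar. Ctsc, Ctsl, Lgmn, Tpp1 and Lamp1 have all 9 points above 0 and Atp6v0e has all 9 below 0.

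By role, the medians of KO minus WT were -0.13 for the V0 sector (1 of 5 above 0), 0.01 for the V1 sector (4 of 7), 0.08 for the proteases (10 of 11), 0.09 for the glycosidases (6 of 7), 0.18 for lipid handling (5 of 6) and 0.07 for the membrane proteins (4 of 4). The pump genes lay on both sides of 0. At 0 min alone the glycosidase median was -0.17 (1 of 7 above 0) and that of lipid handling 0.01 (4 of 6). Without both distant arrays the average was 0.00 for the glycosidases (3 of 7 above 0) and 0.06 for lipid handling, and without WT 0 min replicate 3 it was 0.01 for the V0 sector. Atp6v1a had the largest pump difference, 0.32 ± 0.10 (SE, n = 9 arrays each; adjusted p 0.133, and 0.0733 with the block, limma). That value came mostly from 0 min, where the difference was 0.61 ± 0.17 (SE, n = 3 arrays each; adjusted p 0.396). Within run B the difference at 0 min was 0.75 with an adjusted p of 0.0154, the call of 1 of 41 members beside 9.17% of tested genes. Without WT 0 min replicate 3, Atp6v1a and Ctsc passed the test in the fit without a block, 2 of 41 members beside 4.86% of tested genes. Ppt1, which removes palmitate from proteins, differed by 0.19 ± 0.07 (adjusted p 0.276), Psap by 0.17 ± 0.09 (0.504) and Grn by 0.23 ± 0.13 (SE, n = 9 arrays each; 0.521).

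Other values moved with genotype. Of 9 macrophage markers 2 were called higher in KO without the block, Mertk by 0.76 ± 0.10 (adjusted p 0.000660) and Fcgr1 by 0.38 ± 0.09 (SE, n = 9 arrays each; adjusted p 0.0496, limma). With the block Itgam was called higher by 0.48 and Cd14 lower, at -0.26. The log2 of the summed macrophage markers ran from 13.4 to 13.8 in KO and from 13.3 to 13.7 in WT arrays, so the ranges overlapped. None of 5 osteoclast markers was called without the block, and with it Acp5 was higher by 0.41 and Dcstamp lower, at -0.66. In arrays of whole cultures, fewer cells of a type and less RNA per cell cannot be told apart. All 21 ribosomal protein genes were lower in KO, with a median of -0.16 and none called. With each array centred on those genes the median of all tested genes became 0.17 and that of the members 0.23, and Atp6v1a, Ctsc, Ppt1 and Tpp1 were called, 4 of 41 members beside 4.23% of tested genes. The part of these values in the lysosomal differences was not tested.

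The decay difference is the change over 90 min in KO minus that in WT, the question the series was designed for. No lysosomal gene differed by this test: 0 of 41 members passed, beside 0.0195% of tested genes, and at an unadjusted p under 0.05 the members numbered 0, beside 177 tested genes above 0 and 97 below. The median was 0.15, beside 0.04 over all tested genes, and 33 of 41 members were above 0, beside 56.4% of tested genes. Leaving out 1 array gave medians of 0.07 to 0.27. Centred on the ribosomal protein genes it was 0.02. Taken by replicate number, the members' median was 0.16, 0.39 and -0.06 in replicates 1, 2 and 3, so its sign was not shared. The intervals were wide, with a median SE of 0.24, and reached from -1.80 to 1.90 for Ctsk. A decay difference of the size seen for Tnf, 3.79 ± 0.26 (SE; adjusted p 3.76e-07), lay outside the interval of all 41 members.

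The largest decay differences were those of glycosidases. Gaa had 0.77 ± 0.42, Man2b1 had 0.60 ± 0.34 and Naglu had 0.56 ± 0.37 (SE, n = 3 arrays in each of 4 groups; limma adjusted p 0.999 each). The lowest was -0.49 ± 0.50 for Atp6v0d2, which was -0.22 when KO 90 min replicate 2 was omitted. Of the WT arrays at 0 min, omission of replicate 1 gave -0.28, of replicate 2 gave -0.24 and of replicate 3 gave -0.96. Over the 7 glycosidases the median was 0.40, beside 0.28 for the V0 sector, 0.08 for the V1 sector, 0.15 for the proteases, 0.24 for lipid handling and 0.05 for the membrane proteins. Without WT 90 min replicate 2 it was 0.00 for the proteases and 0.10 for lipid handling, and without WT 0 min replicate 3 it was -0.06 for the V1 sector. In lipid handling, Ppt1 had 0.35 with all arrays and 0.40 without WT 90 min replicate 2, while Npc1 had 0.53 and 0.13.

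Gaa (chromosome 11, 119267963 to 119285458), the acid alpha-glucosidase, read 5.12, 5.17 and 5.48 at 0 min, 5.47, 5.70 and 6.04 at 45 min and 5.67, 5.77 and 6.25 at 90 min in KO cells. In WT cells it read 5.54, 5.81 and 4.97 at 0 min, 5.22, 5.48 and 5.11 at 45 min and 5.49, 4.51 and 5.92 at 90 min. All 3 KO arrays at 90 min lay above the KO arrays at 0 min, whereas the WT arrays at these times overlapped. The KO change over 90 min was 0.64 ± 0.29 (SE, n = 3 arrays at each time; adjusted p 0.907, and 0.556 with the block, limma).

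Naglu, which removes N-acetylglucosamine from heparan sulfate, read 6.27, 6.59 and 6.41 at 0 min, 6.78, 6.51 and 6.98 at 45 min and 6.61, 7.07 and 7.08 at 90 min in KO cells. In WT cells it read 6.83, 6.91 and 6.04 at 0 min, 6.45, 6.45 and 6.60 at 45 min and 6.53, 5.93 and 7.11 at 90 min. Its KO change of 0.49 ± 0.26 (SE, n = 3 arrays at each time) was seen in all 3 numbers, by 0.34, 0.47 and 0.67, while the WT arrays at 90 and 0 min overlapped.

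Man2b1 (chromosome 8, 85082730 to 85098739), the acid alpha-mannosidase, read 8.68, 8.74 and 8.70 at 0 min, 8.99, 8.92 and 8.98 at 45 min and 9.01, 9.23 and 9.10 at 90 min in KO cells. In WT cells it read 8.99, 9.06 and 8.29 at 0 min, 8.92, 8.80 and 8.27 at 45 min and 8.93, 7.98 and 8.85 at 90 min. The KO arrays at 90 min did not overlap those at 0 min, and the WT arrays at these times did.

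**Figure D4:**
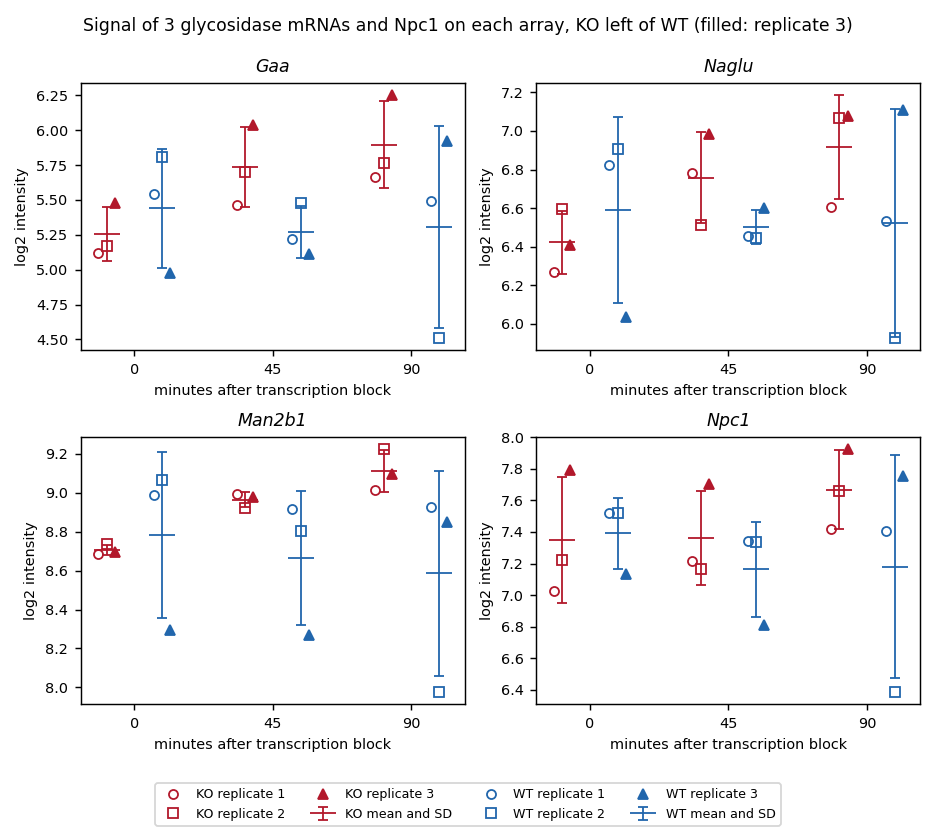
Log2 intensity of Gaa, Naglu, Man2b1 and Npc1 on each array (y axis) at 0, 45 and 90 min (x axis), KO left of WT, with the mean and SD of 3 arrays; filled triangles are replicate 3. In WT cells replicate 2 is the lowest array of the 3 at 90 min and replicate 3 the lowest at 0 min for all 4 genes.

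The glycosidases moved together on single WT arrays. Their median deviation from the group mean was -0.32 on WT 90 min replicate 2, 0.25 on WT 90 min replicate 3, -0.19 on WT 0 min replicate 3 and -0.16 on WT 45 min replicate 3. In KO cells it stayed between -0.10 and 0.08. On those 4 arrays the median deviation of all tested genes was between -0.06 and 0.07. Other roles shifted too. On WT 90 min replicate 2 the median deviation was -0.28 for lipid handling, -0.20 for the proteases and 0.22 for the V1 sector. On WT 90 min replicate 3 it was 0.23 for lipid handling, 0.33 for the proteases and -0.11 for the V1 sector. When WT 90 min replicate 2 was omitted, Gaa had a decay difference of 0.37, Naglu of 0.26, Man2b1 of 0.30 and Npc1 of 0.13, and the glycosidase median was 0.26. Omission of WT 90 min replicate 3 instead gave 1.08 for Gaa, 0.85 for Naglu, 0.74 for Man2b1 and 0.82 for Npc1, with a glycosidase median of 0.49. That median was 0.48 without WT 0 min replicate 3, and 0.40 both without the distant arrays and with all arrays. Within run B, which has 2 arrays a group, the decay difference was 1.25 for Gaa, 1.04 for Naglu, 0.98 for Man2b1 and 1.04 for Npc1. The limma adjusted p was 0.0984 for Gaa, 0.105 for Naglu and 0.126 for Man2b1. WT 90 min replicate 2 is 1 of the 2 WT arrays at 90 min in run B, so it weighs more in these values.

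The median change of the 7 glycosidases over 90 min was 0.33, 0.44 and 0.16 in replicates 1, 2 and 3 of KO cells, whose same-numbered arrays deviated together over time. In WT cells it was -0.10, -0.55 and 0.30, so in replicate 3 the WT rise was the larger. The WT arrays at 90 and 0 min did not deviate together in replicates 2 and 3. The remaining 4 glycosidases had smaller values. Glb1 (beta-galactosidase) had a change of 0.26 in KO and -0.14 in WT, and Gusb (beta-glucuronidase) of 0.22 in KO and -0.14 in WT. Hexa had a change of 0.12 in KO and -0.12 in WT. Gla, the alpha-galactosidase of globotriaosylceramide, had values of the other sign, -0.06 in KO and 0.08 in WT.

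For Ctsk, Ctsh, Ctsl and Lgmn the 2 runs of title numbers differed by more than any fitted genotype or time difference of the same gene. With groups held equal, 13 of 41 members were called between the runs, beside 26.1% of tested genes, and 12 of them were higher in run A, beside 17.1% of tested genes. The median difference was 0.11, beside 0.08 over all tested genes. Ctsk was far apart: it read 4.78 to 5.59 with a median of 5.01 on the 6 arrays of run A and 3.17 to 3.74 with a median of 3.62 on the 12 arrays of run B. The difference was 1.51 ± 0.10 (SE), and every group holds arrays of both runs. With the replicate block the SE of the KO minus WT average of Ctsk was 0.10, against 0.36 without it.

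Ctsh read 8.53 to 8.79 in run A and 7.80 to 8.41 in run B, and Ctsl read 10.73 to 11.16 in run A and 10.01 to 10.62 in run B. With Ctsk these are the 3 of 41 members whose runs did not overlap, beside 4.10% of tested genes. Lgmn was higher in run A by 0.55 ± 0.09, Atp6v0d2 by 0.57 ± 0.16, Atp6v0d1 by 0.40 ± 0.08, Ctsd by 0.36 ± 0.08, Tfeb by 0.35 ± 0.10 and Atp6v1f by 0.33 ± 0.08 (SE, 6 and 12 arrays). Lipa was the member called lower in run A, by 0.37 ± 0.10 (SE; limma adjusted p 0.00741). Of 9 macrophage markers 5 were higher and 1 was lower in run A, with a median of 0.26. Of 5 osteoclast markers 1 was higher, Tnfrsf11a by 0.50, with a list median of 0.22. Their part in the higher Ctsk signal was not tested.

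**Figure D5:**
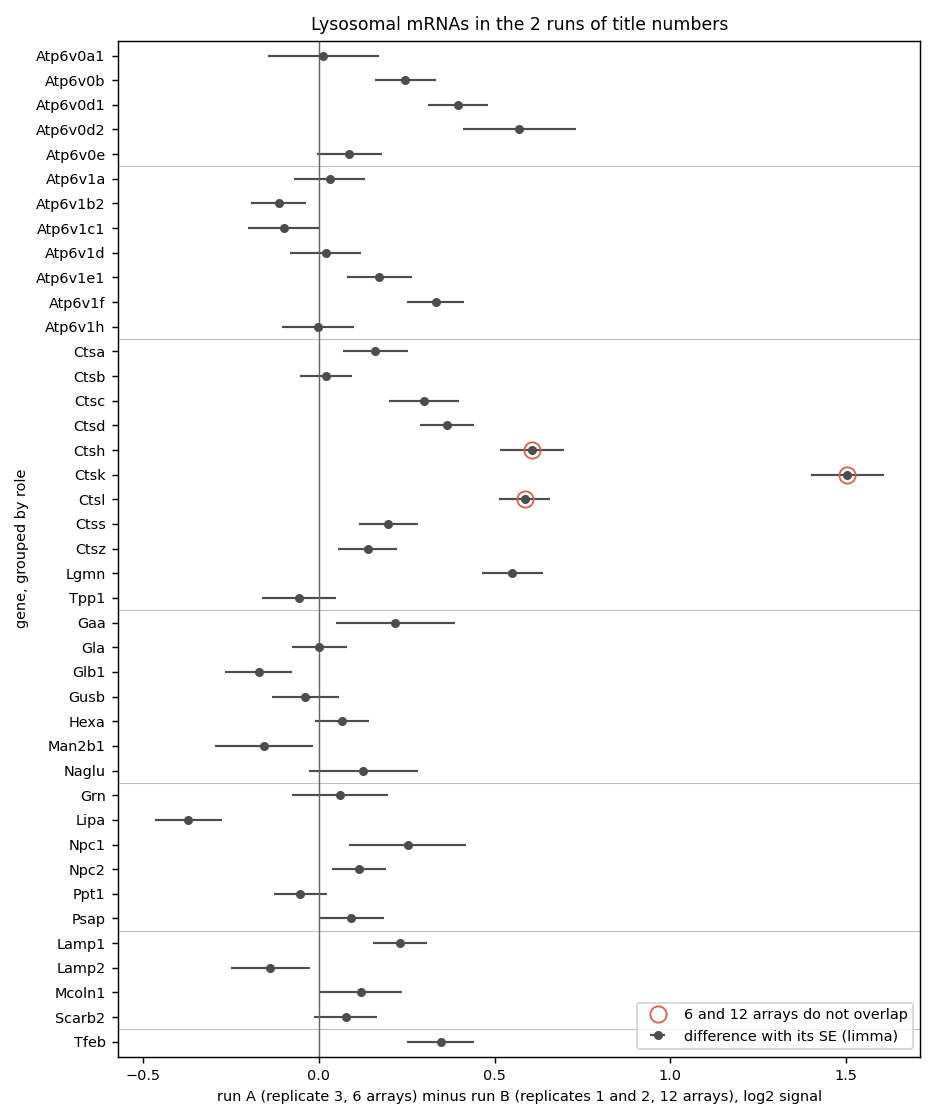
Difference of run A (replicate 3, 6 arrays) minus run B (replicates 1 and 2, 12 arrays) in log2 signal (x axis) for each of 41 lysosomal genes with its SE from limma. Ctsk lies at 1.51, and Ctsk, Ctsh and Ctsl, circled, have runs that do not overlap.

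Other genes of the pathway were read from lists of known function. Of 24 other acid hydrolases 0 were called for KO minus WT without the block, with a median of 0.12 and 17 above 0. With the block 2 were higher, the acid phosphatases Acp2 by 0.33 (adjusted p 0.0372) and Acp5 by 0.41 (adjusted p 0.0313, limma). Of 18 other lysosomal membrane proteins 0 were called (median 0.13, 15 above 0), with the sialic acid exporter Slc17a5 at 0.34 as the largest. Of 18 genes that sort enzymes to lysosomes 0 were called (median 0.11, 13 above 0), with the mannose 6-phosphate receptor Igf2r at 0.43 as the largest. Of 8 other V-ATPase subunits 0 were called, and the accessory subunit Atp6ap2 was at 0.17.

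Among 19 genes of the TFEB family and its control 0 were called without the block, and with it Fnip2, a partner of folliculin, was higher in KO by 0.54 (adjusted p 0.0274). Among 21 autophagy genes the receptor Nbr1 was called higher in KO by 0.49 ± 0.09 (SE, n = 9 arrays each; adjusted p 0.00985), and the receptor Sqstm1 was at -0.30 with an adjusted p of 0.0565 without and 0.0266 with the block (limma). Of 4 cystatin-type inhibitors of cathepsins 0 were called, and Cst7 was at -0.28. Over 90 min, averaged over genotypes, 1 autophagy gene fell, Atg16l1, by 0.50 ± 0.13 (adjusted p 0.0469), and 0 genes of the other acid hydrolases, membrane proteins, sorting genes, TFEB family, cystatins and V-ATPase subunits were called. The decay difference was called for 0 genes of these lists.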

How the data were processed

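RNA from 18 arrays in 6 groups of 3 was analysed. For the deposited intensity values, the submitters' processing notes name RMA and Affymetrix Expression Console. For version and genome build nothing is recorded in the sources used here, and the linear scale was inferred from the range of the values. Intensities were converted to log2 without an offset. In the table of 25138 rows, 21039 had 1 symbol, 1485 had several and 2614 had none; the last 2 kinds were not named. Symbols were updated through RefSeq (GRCm38.p6), 84 rows kept an older one, and the brightest row per symbol was kept. A gene entered the tests (10258 did) if any group mean was at least 8.16 in intensity, the median over rows.

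The main model had 1 mean per group across the 18 arrays (limma 3.58.1, R 4.3.3, moderated by empirical Bayes). P-values were adjusted by Benjamini-Hochberg over all tested genes and read at 0.05, and the procedure was tested on simulated data. The replicate number as a block gave the paired fit. Same-numbered arrays deviated together for KO against WT at 0, 45 and 90 min (lowest correlation 0.16) and for KO over time (lowest 0.32). For WT they did so at 45 against 0 min (lowest 0.33). At 90 against 0 min the WT correlations were 0.42, -0.29 and -0.02, so blocked counts for that change are only a setting. Replicate 3 is run A in every group, so pairing by number and the runs cannot be told apart. Settings tried were both blocks, run B alone, other centrings, array weights, an added 16, no dim filter, mean rows, a variance trend and leaving out each array; the omission of both distant arrays, the blocked fit without each array and the run term were added after seeing the data.

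The members and lists were chosen with earlier results of these data known. Values on every array are given for the 2 members with the largest difference in KO minus WT, in the KO and in the WT change over 90 min and in the decay difference, plus Ctsl; other lists name called genes or the largest.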

Additional observations from a re-analysis of the deposited data

Results flagged for a closer look

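The decay difference of Tnf, the TTP target used as a check of scale, was 3.79 on the log2 scale at 90 min (limma, interaction of genotype and time), so its change over time differed between KO and WT cells. No lysosomal gene met that test, and groups of 3 arrays were too small for the test of single outlying samples.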

How the results depend on the processing

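No member was called in the fit without a block, so no call could be lost. The estimate of array weights stopped short of its tolerance, and its counts are given as they came. For KO minus WT averaged over the 3 times, members called numbered 3 with the replicate block, 3 with the title series as a block, 1 in run B alone, 4 after centring on ribosomal protein genes, 9 with array weights and 2 without both distant arrays, against 0, and leaving out 1 array gave 0 to 2 (2 without WT 0 min replicate 3), or 3 to 5 with the replicate block. With that block and without WT 0 min replicate 3, 5 members were called for KO minus WT averaged. Beside them stand 1009 tested genes called higher and 306 called lower in KO. Members called in that setting numbered 4 at 0 min and 2 for WT at 45 min. No all-gene count stands beside them here, so they are not read as a result about the members. At 0 min the members called numbered 1 in run B alone, 11 with array weights and 2 without both distant arrays (0 to 2 leaving out 1 array, 2 without WT 0 min replicate 3). For WT at 90 min they numbered 1 in run B alone and 7 with array weights, for the decay difference 3 with array weights, and for WT at 45 min 4 with array weights and 1 without both distant arrays. Run B alone called 5.82% of tested genes for KO minus WT averaged, 9.17% at 0 min and 13.4% for WT at 90 min. Array weights called 23.4%, 31.7% and 38.9% in the same order, 9.73% for the decay difference and 20.6% for WT at 45 min. Centring on ribosomal protein genes moved the members' median KO minus WT to 0.23 averaged and 0.24 at 0 min, the KO 90 min change to 0.037, the average 90 min change to 0.054 and the KO 45 min change to -0.044. Centring on the median of tested genes gave 0.053 for WT at 90 min, 0.11 for the average 90 min change and 0.088 for KO at 45 min. Without both distant arrays, WT at 90 min was 0.070 and the average 90 min change 0.10, and in run B alone the average 90 min change was 0.021. Leaving out 1 array, the medians ranged 0.05 to 0.10 for KO minus WT averaged, -0.07 to 0.05 at 0 min, 0.058 to 0.21 for KO at 90 min, -0.12 to 0.02 for WT at 90 min, 0.0048 to 0.090 for the average 90 min change, 0.07 to 0.27 for the decay difference, -0.020 to 0.12 for KO at 45 min and -0.10 to -0.06 for WT at 45 min. Over all tested genes, calls for KO minus WT averaged numbered 476 with the replicate block, 597 in run B alone and 2405 with array weights, against 136, and at 0 min 32, 941 and 3250, against 0. For WT at 90 min they were 296, 1378 and 3993, against 126, and for KO at 90 min 57, 22 and 112, against 23. Array weights called 998 genes for the decay difference, against 2, and 2112 for WT at 45 min, against 13, where the omission of both distant arrays called 4.53% of tested genes. That omission called 688 for KO minus WT averaged and 1042 at 0 min, and centring on ribosomal protein genes 434 for KO minus WT averaged. Without WT 0 min replicate 3 alone, calls over all tested genes numbered 499 for KO minus WT averaged, 815 for the 0 min comparison and 296 for the WT change over 90 min. The causes were not tested. Groups of 3 arrays limit the precision.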
